A study of Mus musculus with 17 samples.

Results

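Malat1, Neat1, Tug1, Pvt1, Gm26917 and Kcnq1ot1 are long non-coding RNAs grouped here as nuclear, which holds only in part for Tug1 and is not settled for Gm26917. They were taken by symbol from the gene-by-cell tables of single-cell RNA sequencing (Seq-Well S3) of mouse small intestinal organoids. Of the 6 symbols, 5 have a row in all 17 tables, out of 26422 gene rows in all, and Kcnq1ot1 was not analysed here. The members were proposed from results of the comparison of KPT-330 with control in these libraries, so their values in that comparison are given as a description, without a test. The organoids came from wild-type C57BL/6 mice, and many organoids were pooled for each library, so a library does not stand for 1 animal. All had first been kept in ENR+CV, a medium with EGF, Noggin, R-spondin 1, CHIR99021 and valproic acid that enriches stem cells, and 2 libraries were made from these cells at day 0. The others had then been moved to ENR+CD, in which CHIR99021 and the Notch pathway inhibitor DAPT direct the cells toward Paneth cells. Of these, 7 control libraries had no inhibitor and 8 libraries had KPT-330 at 160 nM, at days 0.25, 1, 2, 3, 4 and 6. The 2 ENR+CV and 7 control libraries are called untreated below.

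KPT-330 (selinexor) blocks XPO1, the export receptor that carries proteins with a nuclear export signal, and some RNAs bound to them, out of the nucleus. Most messenger RNA leaves by another receptor. Malat1 collects in nuclear speckles, bodies rich in splicing factors. Neat1 is the scaffold of paraspeckles, bodies that hold RNA-binding proteins and edited RNAs, and only its long isoform builds them. Tug1 is partly nuclear and partly cytoplasmic. Pvt1 lies beside Myc and hosts microRNAs. Kcnq1ot1 is read antisense to Kcnq1 and silences imprinted neighbours in cis. Gm26917 has no settled role, and it lies beside Gm42418, a gene model known to collect reads of ribosomal RNA origin, so its counts are uncertain.

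The 3′ ends of Malat1 and long Neat1 carry a feature that the others lack, and it bears on how a poly(T) capture method sees them. Neither ends in a poly(A) tail. RNase P cuts both transcripts, and T-rich stretches fold with an A-rich stretch near the cut end into a triple helix, as known from earlier work on these RNAs. A genomic A-rich tract can prime poly(T) beads in the place of a tail, and the files do not tell which molecules were caught in that way. In GENCODE vM21 on GRCm38, Malat1 lies at chr19:5795690-5802672 and Neat1 at chr19:5824708-5845478, both on the minus strand and 22035 bases apart. The lines below give, 5′ to 3′ and in DNA letters, the end region of Malat1-201 (6983 bases, 1 exon; exonic, chr19:5795962-5796039) and the last bases of the long Neat1-201 (20771 bases, 1 exon; exonic, chr19:5824708-5824767). The capitals mark the A-rich letters and a T-rich stretch before them, which need not be all that folds.
Malat1-201: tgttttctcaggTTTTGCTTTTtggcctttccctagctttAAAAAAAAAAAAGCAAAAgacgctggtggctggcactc
Neat1-201: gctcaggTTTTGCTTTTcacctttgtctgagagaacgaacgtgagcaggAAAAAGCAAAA
The A-rich letters AAAAAGCAAAA, taken here from the end of Neat1-201, were in the last 400 bases of 143 of 122312 annotated transcripts of at least that length (0.117%), and their reverse complement TTTTGCTTTTT in 123 (0.101%). The T-rich letters TTTTGCTTTT, from the same end, were in 364 (0.298%), and their reverse complement AAAAGCAAAA, which lies within the A-rich letters, in 380 (0.311%). Both AAAAAGCAAAA and TTTTGCTTTT on the transcript strand were in 2 transcripts, of the genes Malat1 and Neat1, the latter by construction. The short Neat1-202 (3004 bases) ends in the ordinary way, at chr19:5842307-5842366, and the capitals mark its AATAAA polyadenylation signal letters, which are in the last 60 bases of 27.2% of transcripts (reverse complement TTTATT, 4.82%).
Neat1-202: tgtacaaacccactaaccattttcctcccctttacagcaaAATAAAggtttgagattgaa
The annotated Malat1-201 runs 272 bases past the stretch shown above, and it also has AATAAA in its last 60 bases. The gene rows do not separate the isoforms, so each Neat1 value below covers all of them. Tug1 lies at chr11:3639785-3649673 on the minus strand, Pvt1 at chr15:62037986-62378096 on the plus strand, and Gm26917 at chr17:39843013-39846341 on the plus strand, 616 bases before Gm42418.

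The analysis used the 19877 cells that the study kept, of 26229 barcodes in the tables, and 14 barcode sequences occurred in more than 1 library. A library held 531 to 1547 cells and 3458887 to 12433109 UMIs. Median UMIs per cell ran from 2676 to 8463, and the median mitochondrial share from 6.31% to 18.3%. Paneth cell markers summed to 27.7 to 39.3 UMIs per 10000 in ENR+CV libraries, 32.0 to 1204 in control and 45.1 to 1831 in KPT-330 libraries, while tuft cell markers stayed at or under 0.0756 and markers of immune, mesenchymal, endothelial and red blood cells at or under 1.51. Transcripts of 4 Y-linked genes summed to 1.07 to 1.84 UMIs per 10000 in every library and Xist, a nuclear RNA of cells with 2 X chromosomes, to at most 0.00669, so the libraries matched in this respect. A library is the replicate below. The labels do not say whether libraries of the same day came from separate cultures, so p-values measure the spread between these libraries, which may be technical.

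Malat1 was 16.7 and 19.1 UMIs per 10000 in the ENR+CV libraries. It was 21.2 at day 0.25, 33.1 at day 1, 53.8 at day 2, 77.6 at day 3 and 78.9 at day 4 in the control libraries, and 43.4 and 60.7 at day 6. Every control library lay above both ENR+CV libraries, and the levels of days 3 and 4 were the highest. Neat1 was 0.928 and 1.10 in ENR+CV, 0.625, 0.698, 1.67, 1.76 and 2.38 over days 0.25 to 4, and 1.15 and 2.41 at day 6. Its levels at days 0.25 and 1 lay below those of ENR+CV, and the 2 libraries of day 6 differed by more than those of ENR+CV did. In the edgeR quasi-likelihood fit of the 9 untreated libraries on log2(day + 1), the slope of Malat1 was 0.73 ± 0.13 (SE) on the log2 scale (adjusted p = 0.000909) and that of Neat1 was 0.48 ± 0.12 (adjusted p = 0.00638). Both slopes were upward, though for both genes replicate 1 of day 6 lay below day 4. Day 0 is in ENR+CV and all later days in ENR+CD, so time and the change of medium cannot be fully told apart. The libraries of days 0.25 and 1 are labelled replicate 1, and the control libraries of days 2, 3 and 4 replicate 2. Day and replicate number thus cannot be fully told apart. At day 6 Neat1 was 1.15 in replicate 1 and 2.41 in replicate 2. With the mitochondrial share of the library as a further term the slope of Neat1 was 0.41 ± 0.18 (edgeR adjusted p = 0.0925), and that of Malat1 was 0.78 ± 0.19 (edgeR adjusted p = 0.00839).

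The other members did not pass the test with time in the untreated libraries. Tug1 was 0.607 and 0.449 UMIs per 10000 in ENR+CV and between 0.540 and 0.808 in the control libraries, with its highest value at day 3. Its slope was 0.07 ± 0.08 (edgeR adjusted p = 0.471). Pvt1, with 20 to 130 UMIs in a library, was 0.109 and 0.132 in ENR+CV and 0.0712 to 0.176 in control (slope 0.23 ± 0.11, edgeR adjusted p = 0.104). Gm26917 was 3.06 and 2.94 in ENR+CV, above all 7 control libraries, which held 1.11 to 2.52, and its slope was -0.13 ± 0.12 (edgeR adjusted p = 0.401). So 2 of the 5 members passed the test with time, beside 49.0% of the 12202 genes tested, which is no larger a share.

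**Figure D1:**
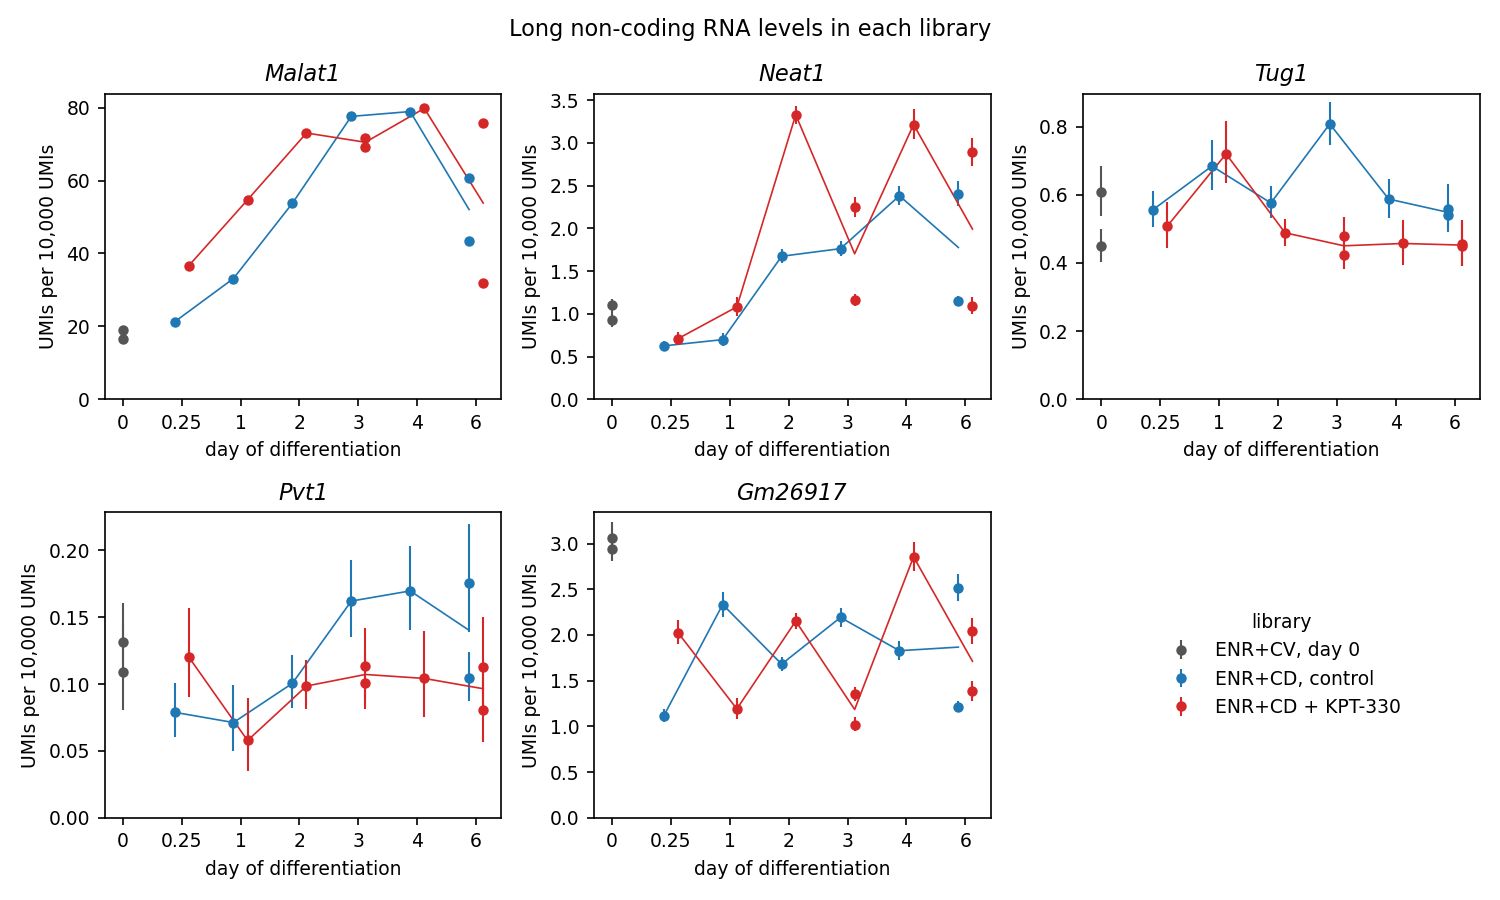
Levels of the 5 members in each of the 17 libraries (y axis, UMIs per 10000 UMIs; x axis, day, evenly spaced). Grey points are ENR+CV, blue control and red KPT-330 libraries, bars are 95% Poisson intervals that cover counting error only, and lines join the means of a day. Malat1 climbs from 16.7 to 78.9 in untreated libraries, and the red points lie above the blue at days 0.25, 1 and 2.

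With KPT-330, Malat1 was 36.6 UMIs per 10000 at day 0.25, 54.7 at day 1 and 73.0 at day 2, against 21.2, 33.1 and 53.8 in control. These are 1.72, 1.65 and 1.36 times the control level. At day 3 the order turned, with 71.8 and 69.2 in the KPT-330 libraries, both under the control library at 77.6. At day 4 they held 79.8 against 78.9, and at day 6 the 2 KPT-330 libraries, at 32.0 and 75.7, spanned the control libraries at 43.4 and 60.7. The mean of the log2 ratio was 0.65 over days 0.25 to 2 and -0.06 over days 3 to 6, and whether the ratio differed between days was not tested. In both conditions days 0.25 and 1 hold only replicate 1 and days 2 and 4 only replicate 2, so days differ in replicate number as well. Among 3794 genes with a mean level of at least 0.5 per 10000, the median gene had a mean log2 ratio of -0.06 in the early days and -0.24 in the later ones. Over the 6 time points, the mean log2 ratio of Malat1 was 0.29 ± 0.41 (SD, n = 6 time points), and 7.20% of these genes had a larger one.

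Neat1 was also higher with KPT-330 at the early time points. It was 0.709, 1.08 and 3.33 UMIs per 10000 with KPT-330 at days 0.25, 1 and 2, against 0.625, 0.698 and 1.67 in control, and the ratio was largest at day 2 (1.99 times). At day 3 its libraries with KPT-330, at 1.16 and 2.25, lay on both sides of the control library at 1.76, and at day 4 the values were 3.21 and 2.38. At day 6 they were 1.09 and 2.89 against 1.15 and 2.41, and the groups overlapped. Its mean log2 ratio was 0.37 ± 0.40 (SD, n = 6 time points), higher with KPT-330 at 5 of 6.

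Tug1 and Pvt1 lay lower with KPT-330 at most time points. Tug1 was 0.422 and 0.478 UMIs per 10000 at day 3 against 0.808 in control, its largest ratio (0.556 times), and its mean log2 ratio was -0.30 ± 0.31 (SD, n = 6 time points, below 0 at 5). Only at day 1 was it higher, at 0.720 against 0.684. Of the 3794 genes, 73.6% had a larger mean log2 ratio than Tug1, and the median gene had -0.15. Pvt1 was lower at 5 of 6 as well (mean log2 ratio -0.26 ± 0.49), the exception being day 0.25, with 0.120 against 0.0789. Gm26917 was higher at 3 time points and lower at 3, with log2 ratios from 0.86 at day 0.25 to -0.97 at day 1 and a mean of -0.01 ± 0.78.

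In the edgeR fit of the 15 libraries with time point as a term, which scales libraries by trimmed means (TMM), the log2 fold change was 0.51 ± 0.15 (SE) for Malat1, 0.60 ± 0.20 for Neat1, -0.06 ± 0.09 for Tug1, -0.03 ± 0.14 for Pvt1 and 0.19 ± 0.22 for Gm26917. At an adjusted p of 0.05, 2 of the 5 members were called, beside 28.6% of the 12812 genes tested (14.4% higher, 14.2% lower), and nothing is read from this count because the members were chosen from this contrast. The scale matters here. With library totals in place of TMM factors the median gene moved from -0.00 to -0.27, and Malat1 stood at 0.25, Neat1 at 0.34, Tug1 at -0.33, Pvt1 at -0.31 and Gm26917, now below 0, at -0.08. Malat1 thus lay 0.51 above the median gene with TMM and 0.52 above it without. In cells under 10% mitochondrial share Malat1 was 0.41 ± 0.21 and Neat1 0.43 ± 0.22, and the 2 calls held neither there nor without TMM factors. With the UMIs per cell as a term Neat1 was 0.45 ± 0.17 and was not called. Leaving out single libraries or days moved Malat1 between 0.43 and 0.59 and Neat1 between 0.49 and 0.71. A summed level cannot tell a change within cells from a change in which cells are present.

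The cells were therefore grouped into 13 clusters, with the members left out of the genes used. Markers named 8 clusters in 5 classes: Paneth-like (led by Gm14851, Ang4 and Defa26 in cluster 1, and Defa21, Defa22 and Defa3 in cluster 3), cycling-like (Mki67, Top2a, Ccna2), goblet-like (Zg16, Clca3, Fcgbp), enterocyte-like (Fabp1 and Ces1f in cluster 7, Apoa1 and Apoa4 in cluster 9) and enteroendocrine-like (Neurog3 and Miat in cluster 8, Gcg and Cck in cluster 10). The 5 unnamed clusters are called by number: cluster 2 (Gm10800, Aqp4, Clca4), 4 (Clu, Notum, Gif), 6 (Lyz1, Spink4, Ccl9), 11 (Dmbt1, Pycard) and 12 (Mbl2). They held 38.4% of ENR+CV, 32.9% of control and 29.4% of KPT-330 cells. The names were rebuilt here and may differ from those of the study.

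In the untreated libraries Malat1 differed widely between classes. Enteroendocrine-like cells, the hormone-secreting cells, held 86.3 ± 35.6 UMIs per 10000 (SD, n = 8 libraries with at least 20 cells), and cluster 4 held 95.1 ± 20.5 (n = 6). Cluster 6 (57.2 ± 26.0, n = 5), goblet-like (53.9 ± 26.0, n = 9), Paneth-like (47.6 ± 20.4, n = 5), cycling-like (39.2 ± 19.1, n = 9) and cluster 2 (38.3 ± 17.6, n = 8) lay between. Cluster 11 held 19.9 ± 1.57 (n = 4) and enterocyte-like cells, the absorptive cells, 7.01 ± 1.56 (n = 9). Of the neighbours in this order, enteroendocrine-like exceeded cluster 6 in 5 of 5 shared libraries (log2 difference 1.08 ± 0.65), goblet-like exceeded Paneth-like in 5 of 5 (0.73 ± 0.44) and cluster 11 exceeded enterocyte-like in 4 of 4 (1.29 ± 0.15). The other neighbours differed by less than the spread between libraries. The class means rest on unlike sets of libraries, so they differ in the days covered as well as in class. ENR+CV held 14 Paneth-like cells, 2 of cluster 4 and 17 of cluster 6, so no ENR+CV library entered those means. Levels over time are given for 3 classes, without a test. Goblet-like cells held 27.6 at day 0.25 and 87.4 at day 4 in control, and enteroendocrine-like cells 60.1 at day 1 and 130 at day 4, while enterocyte-like cells held 8.88 at day 0.25 and 5.07 at day 4.

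Neat1 was ordered differently, over the same unlike sets of libraries and days. Cluster 6 held 2.47 ± 1.02, Paneth-like cells 2.22 ± 0.69, cluster 4 2.10 ± 0.61 and goblet-like cells 2.00 ± 1.21 UMIs per 10000. Enteroendocrine-like cells, near the top for Malat1, held 1.22 ± 0.46 and cycling-like cells 0.80 ± 0.23. Only cluster 11 over enterocyte-like cells exceeded the spread among neighbours in that order. Tug1 was 0.96 ± 0.30 in enteroendocrine-like cells and 0.33 ± 0.09 in enterocyte-like cells, and Pvt1 and Gm26917 were also lowest in enterocyte-like cells.

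**Figure D2:**
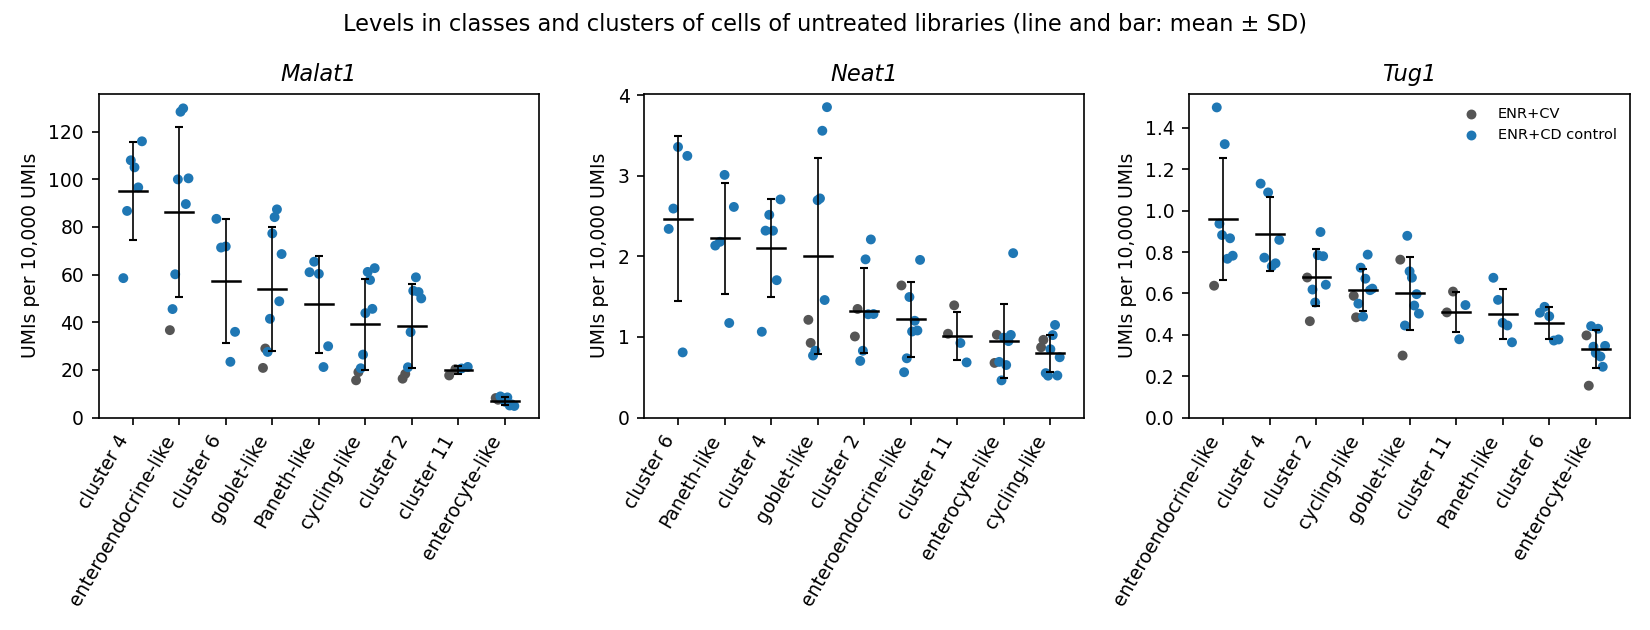
Malat1, Neat1 and Tug1 in cell classes and unnamed clusters of the untreated libraries (UMIs per 10000; points are libraries with at least 20 cells of the class, bars the mean ± SD). Malat1 runs from 7.01 in enterocyte-like cells to 95.1 in cluster 4, while Neat1 has a narrower range, from 0.80 in cycling-like cells to 2.47 in cluster 6. The classes rest on unlike sets of libraries and days.

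Within the classes Malat1 was higher with KPT-330 throughout the time course. It was higher in 36 of the 37 pairs of class and time point with at least 20 cells in both conditions, and the median log2 ratio was 0.62. At days 3 and 6, the time points with more than 1 library in a condition, the libraries of the conditions overlapped in 4 of 12 pairs. Cluster 4 held 228 UMIs per 10000 with KPT-330 and 108 in control at day 3, and 188 and 106 at day 6. Enteroendocrine-like cells held 97.8, 189, 241 and 185 at days 1, 3, 4 and 6 with KPT-330, and 60.1, 128, 130 and 94.9 in control. In goblet-like cells the largest ratio was at day 1, with 80.8 against 41.4.

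The size of the difference varied between classes. The mean log2 ratio was 0.97 ± 0.11 (SD, n = 4 time points) in cluster 4, 0.91 ± 0.20 (n = 3) in cluster 2, 0.77 ± 0.12 (n = 3) in cycling-like, 0.75 ± 0.18 (n = 5) in enteroendocrine-like and 0.59 ± 0.24 (n = 6) in goblet-like cells. Enterocyte-like cells had 0.62 ± 0.64 (n = 6), with 17.5 against 5.16 UMIs per 10000 at day 6. In that pair the KPT-330 cells had a mitochondrial share of 15.8% against 10.3%, the largest difference of the 37 pairs, and 5715 against 11230 median UMIs per cell. Paneth-like cells, the cells the medium is made to yield, had 0.07 ± 0.08 (n = 4), with 66.1 against 65.4 at day 3 and 25.3 against 25.2 at day 6, and 0.24 ± 0.11 where the clusters came from log-normalized counts. Cluster 6, which is led by Lyz1, had 0.22 ± 0.29 (n = 4) and held the 1 pair that was lower, at day 6 with 27.5 against 29.0. These differences between classes were not tested.

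Class shares moved with the treatment. Enterocyte-like cells, low in Malat1, were 9.30% of control and 19.2% of KPT-330 cells, and Paneth-like cells 21.1% and 27.8%, while enteroendocrine-like cells were 16.8% and 9.76% and cluster 4 15.9% and 5.96%. With the cluster shares held equal in both conditions, the log2 ratio of Malat1 was 0.79, 0.87, 0.66, 0.57, 0.60 and 0.69 at days 0.25, 1, 2, 3, 4 and 6, a mean of 0.70 ± 0.11 (SD), against 0.29 ± 0.41 in whole libraries. At days 3, 4 and 6 the ratios in whole libraries were -0.14, 0.02 and -0.06. The mean of the ratios within classes was 0.59 ± 0.11, and 30 of the 3794 genes (0.791%) had a larger one, while the median gene had -0.07. Clusters within a class were not evenly filled: cluster 1 held 65.4% of control Paneth-like cells and cluster 3 57.5% of those with KPT-330, cluster 8 held 57.4% of control enteroendocrine-like cells and cluster 10 58.2% of those with KPT-330, and cluster 7 held 54.9% of control enterocyte-like cells and cluster 9 50.9% of those with KPT-330. By single clusters Malat1 was higher in 41 of 46 pairs.

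Neat1 within classes was higher in 29 of 37 pairs, with a mean log2 ratio of 0.39 ± 0.41 (SD, n = 6 time points), and 2.29% of the 3794 genes had a larger one. It was higher at 5 of 5 time points in enteroendocrine-like cells (0.98 ± 0.26) and lower at 4 of 4 in Paneth-like cells (-0.34 ± 0.33). The latter depended on the clustering: when cells were clustered on log-normalized counts, Neat1 in Paneth-like cells was higher at 2 time points and lower at 2 (-0.13 ± 0.42). Tug1 was lower in 25 of 37 pairs, with a mean of -0.15 ± 0.25. The median gene had -0.07, and 72.0% of the 3794 genes had a larger mean than Tug1. Gm26917 was higher in 21 pairs, and 24.7% of the genes were higher in at least as many.

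**Figure D3:**
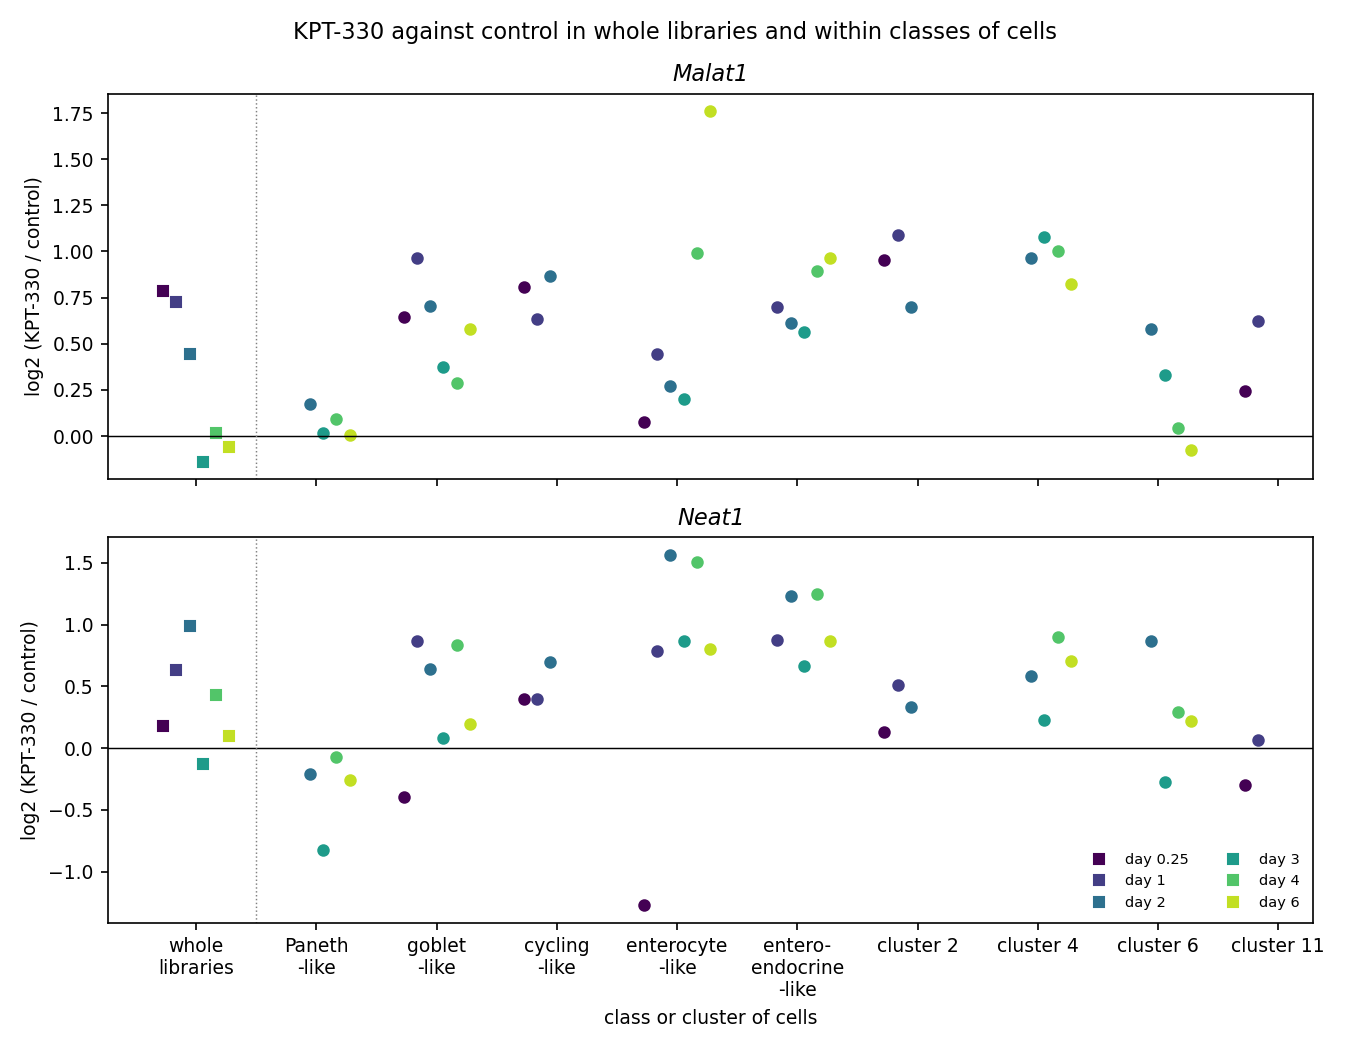
Log2 ratio of KPT-330 to control for Malat1 and Neat1 at each time point, in whole libraries (squares) and within cell classes and unnamed clusters (circles, coloured by day). For Malat1, 36 of the 37 circles lie above 0, while the squares of days 3 to 6 lie between -0.14 and 0.02.

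A damaged cell can lose RNA of the cytoplasm and keep that of the nucleus and mitochondria, so the mitochondrial share and the UMIs per cell were set beside the members. The median mitochondrial share was 0.48 ± 1.80 percentage points higher with KPT-330 (SD over 6 time points, higher at 4 of 6, exact sign-flip permutation test, two-sided p = 0.562). The log2 ratio of median UMIs per cell was -0.26 ± 0.38 (lower at 4 of 6, exact sign-flip p = 0.156, 0.312 adjusted over the 2 measures). With 6 time points the smallest p this test can give is 0.0312. In the 37 pairs of class and time point the KPT-330 cells had fewer UMIs in 27 and the higher mitochondrial share in 21. Over 11 alternative fits, among them fits with either measure as a term, the log2 fold change of Malat1 ran from 0.25 (without TMM factors) to 0.56. The part of depth and of the mitochondrial share in the KPT-330 values within classes was not tested.

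Within a library Malat1 did move with both measures. Relative to UMIs of genes other than mitochondrial ones, it was 51.1 ± 26.1 per 10000 (SD, n = 17 libraries) in the 25% of cells with the lowest mitochondrial share and 73.6 ± 30.1 in the 25% with the highest, and was higher in the latter in 16 of 17 libraries. It was 88.0 ± 48.6 in the 25% of cells with the fewest UMIs and 45.4 ± 17.4 in those with the most, lower in the latter in 16 of 17. Neat1 was higher at a high mitochondrial share in 14 of 17 libraries (log2 difference 0.40 ± 0.44), as was Gm26917 (0.43 ± 0.38). Gm26917 was lower in the cells with most UMIs in 17 of 17 libraries (-0.97 ± 0.51), and Tug1 in 12 (-0.18 ± 0.41). Cell classes also differ in depth, and their part in these values was not tested.

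**Figure D4:**
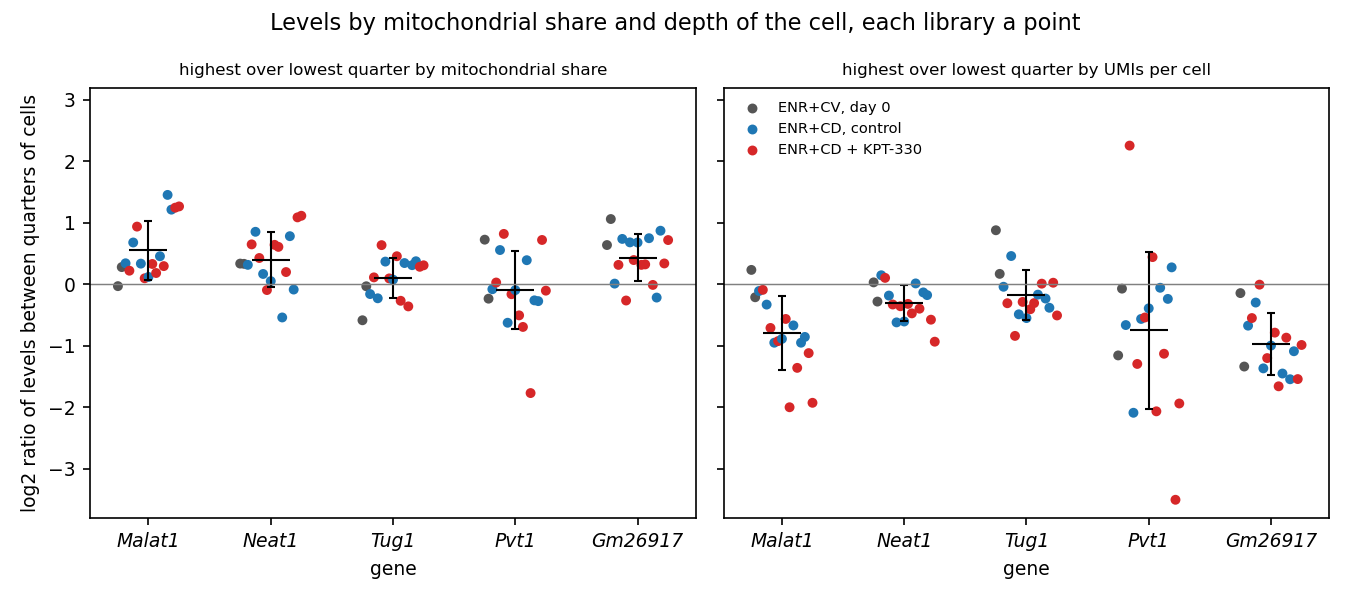
Log2 ratio of the level of each member between the 25% of cells with the highest and the lowest mitochondrial share (left), and with the most and the fewest UMIs (right), within each of the 17 libraries. Points are libraries (grey ENR+CV, blue control, red KPT-330), bars the mean ± SD, and levels are relative to UMIs of genes other than mitochondrial ones. Malat1 lies above 0 on the left in 16 of 17 libraries and below 0 on the right in 16.

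Genes for proteins of the bodies that hold Malat1 and Neat1 fell with KPT-330 where they were called, with 1 exception. These gene lists and all those below were chosen with earlier results of these data known. Of 25 genes for paraspeckle proteins, 14 fell with KPT-330 and 0 rose (edgeR adjusted p under 0.05), beside 14.2% and 14.4% of all genes tested, with a median log2 fold change of -0.29 beside -0.00 over all of them. Rbmx (-0.76 ± 0.14, edgeR adjusted p = 0.00241), Hnrnph1 (-0.65 ± 0.11, 0.00113) and Hnrnph3 (-0.60 ± 0.15, 0.0103), which bind RNA and steer splicing, fell most. In cells under 10% mitochondrial share 5 of these genes fell. Of 30 tested genes for nuclear speckle proteins, 9 fell and 1 rose (median -0.20): Ddx39b, an mRNA export helicase, Pnn and the splicing factor Srsf1 fell by 0.51, 0.50 and 0.48, and the cyclin Ccnl1 rose by 0.26. Within classes none of 16 measured paraspeckle genes and 2 of 23 speckle genes had a mean ratio above 0, beside 31.8% of all 3794 genes. With time in the untreated libraries, 2 paraspeckle genes rose and 5 fell of 25, and 4 speckle genes rose and 5 fell of 30. These shares are below the 24.5% of all genes in each direction. Among the speckle genes Ccnl2 (0.44) and Clk4 (0.32) went upward and Srsf1 (-0.45) downward.

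Factors that degrade RNA in the nucleus were also looked at. Of 19 tested genes of the exosome, its helpers and nuclear poly(A) binding, 4 fell with KPT-330 and 0 rose (median -0.15), a share near that of all genes, Pabpn1 by 0.49, Exosc8 by 0.42 and Dis3, a catalytic subunit of the exosome, by 0.32. With time, 11 fell and 1 rose, beside 24.5% of all genes in each direction (median -0.25), with Exosc8 at -0.71, Dis3 at -0.57 and Exosc2 at -0.51.

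No other long non-coding RNA on the lists was called higher with KPT-330, beside 14.4% of all genes tested. Of 7 tested nuclear ones, 3 fell, beside 14.2% of all genes, and 0 rose (median -0.37). Those that fell were Miat (-1.47 ± 0.24), Mir17hg (-0.76 ± 0.25) and the imprinted Airn (-0.63 ± 0.15). Miat was among the genes that lead the enteroendocrine-like cluster 8, whose class had the smaller share with KPT-330. With time 2 of 6 tested rose, Miat (1.09) and Airn (0.77), and 0 fell, beside 24.5% of all genes in each direction. A further list held cytoplasmic RNAs, hosts of small nucleolar RNAs and others such as Rpph1, the RNA of RNase P, and Rmrp. So it is not a list of cytoplasmic RNAs alone. Of its 12 tested genes, Dancr (-0.68) and Snhg3 (-0.40) fell with KPT-330 and 0 rose, beside 14.2% and 14.4% of all genes tested. With time 8 fell, beside 24.5% of all genes, among them Rpph1 (-1.46), Rmrp (-0.68) and Snhg6 (-0.64). Of 4 tested ribosomal RNA rows, 0 passed either test. Rn45s, Gm42418 and AY036118, also on that list, had no row, so reads of ribosomal RNA origin in Gm26917 could not be checked.

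Genes beside the members on the chromosome went both ways. Of 16 tested, 3 rose and 5 fell with KPT-330 (median -0.12), beside 14.4% and 14.2% of all genes tested. Near Malat1 and Neat1, Frmd8 rose by 0.31 while Ltbp3, at a low count, fell by 1.81. Near Tug1, Rnf185 rose by 0.57 and Pik3ip1 fell by 1.47, and Kcnq1 fell by 0.54. The immediate-early and heat shock genes that respond to tissue dissociation and stress rose with KPT-330 in 11 of 12 cases, beside 14.4% of all genes. Their median was 0.62 (0.35 and 6 of 12 without TMM factors, 5 of 12 in cells under 10% mitochondrial share, and 8 of 12 without day 3). Hspa1a, at a low count, rose by 1.37, Atf3 by 1.09 and Dusp1 by 0.96. In the untreated libraries 7 of the 12 rose with time, among them Btg2 (0.79), Atf3 (0.72) and Fosb (0.53), and 0 fell, beside 24.5% of all genes in each direction. The part of these genes in the levels of Malat1 and Neat1 was not tested.

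The genes whose log2 level was most like that of each member over the 17 libraries, of 9056 genes compared, are a description, since these libraries share days, treatment and cell makeup. For Malat1 they were Sash1 (Pearson r 0.97), Cflar, an inhibitor of caspase-8 activation (0.96), and Rassf6 (0.96), and for Neat1 they were Stk25 (0.94), Cope, a coat protein subunit of Golgi vesicles (0.94), and Tmc6 (0.93). For Tug1 they were Stk38l (0.85), Ppp1cb (0.79) and Arel1 (0.76), for Pvt1 Zfp688 (0.88), Snx8 (0.87) and Trim11 (0.87), and for Gm26917 Ankrd27 (0.66), Ccdc92 (0.66) and Myc (0.64). Malat1 itself had r = 0.81 with Neat1, 0.45 with Pvt1, 0.30 with Tug1 and -0.00 with Gm26917.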

How the data were processed

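The tables hold UMI counts per gene and barcode. The authors converted reads with bcl2fastq, aligned them to mm10 with the DropSeq pipeline and STAR, and deposited these counts together with a merged table whose header names the cells they kept. Their stated limits were at least 500 genes, under 30000 UMIs and under 35% mitochondrial UMIs, with further removal of doublets. No doublet caller was run here. The members and gene lists were chosen with earlier results of these data known. Counts were summed per library over the kept cells. edgeR 4.0.16 (quasi-likelihood, TMM factors, low counts filtered by filterByExpr, Benjamini-Hochberg over all genes tested) compared 8 KPT-330 with 7 control libraries with time point as a term, and fitted a slope on log2(day + 1) in the 9 untreated libraries. On simulated counts it recovered 99.5% and 100% of 200 genes changed by a log2 size of 1, among 12408 and 12105 genes. Of the genes called there, 4.33% and 7.41% had not been changed. The simulation gave every gene the same dispersion, which real counts do not have. DESeq2 1.42.0 was an alternative. Clusters came from Seurat 5.3.0 with SCTransform (sctransform 0.4.2). A cluster was named where its best marker score led the next by 0.3, at least 3 markers were detected and its 10 leading genes held more markers of that class than of any other, limits set after the data were seen. Levels within classes needed 20 cells in a library, with 0.5 UMIs added before the logarithm of a ratio. Named genes were all members, the 3 genes most like each, up to 3 called genes per list and direction with the largest change, and the leading genes of clusters. Not every gene so selected is reported here. Sequences and positions came from GENCODE vM21 (GRCm38). Intervals cover counting error only.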

Additional observations from a re-analysis of the deposited data

Results flagged for a closer look

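The log2 ratio of KPT-330 to control changed sign between time points for 3 members in whole libraries, with every library of the one time point on the other side of control from every library of the other. For Malat1 it was 0.79 at day 0.25 and -0.14 at day 3. For Pvt1, which rests on few UMIs, it was 0.61 at day 0.25 and -0.70 at day 4. For Gm26917 it was 0.86 at day 0.25 and -0.97 at day 1. Most of these time points have 1 library per condition, and the differences between time points were not tested.

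Barcodes outside the limits on genes, UMIs or mitochondrial share were in no comparison of the report. There Gm26917 was 7.84 ± 8.47 UMIs per 10000 (SD, n = 17 libraries), against 1.94 ± 0.66 in the kept cells, and it was higher in 16 of 17 libraries and in 9 of the 9 untreated ones.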

How the results depend on the processing

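Of 336 values recomputed under the alternatives, 330 stayed the same. For a tested value this means the same sign and side of the threshold, for a count within 1.5 times, and for a value with no test, such as a member's fold with KPT-330, a move within its spread over time points. By that last measure calls are not compared. Without TMM factors and in cells under 10% mitochondrial share Malat1 and Neat1 were not called. The same held for Neat1 with the UMIs per cell as a term. Malat1 was called in 9 and Neat1 in 6 of the 12 fits that left out a library or day, which called 2092 to 3969 genes. Nothing is read from these calls of members, because the members were chosen from this contrast. Without TMM factors Tug1 was called lower (-0.33) and Gm26917 turned to -0.08. The number of genes called with KPT-330 was 3661 and fell to 1144 (571 higher, 573 lower) in cells under 10% mitochondrial share, which are 37.3% of the kept cells. Leaving out a day gave 2092 (day 3) to 3950 calls, with 2420 without day 4, and leaving out a library 2881 to 3969. For time, where 5982 genes were called, leaving out a library gave 5197 to 5948. DESeq2 called 3617 and 6217. Without TMM factors 5370 genes were called with KPT-330, of which 470 (8.75%) were higher and 4900 lower, against 50.3% higher with them. The slope of Neat1 with time was 0.41 with the mitochondrial share as a term and was no longer called, and Malat1 was called in all 8 such alternatives (highest edgeR adjusted p = 0.0211, with day as a linear term). The slope of Tug1 with time, not called, turned to -0.026 without ENR+CV replicate 2. The difference in mitochondrial share, 0.48 points, ran from -0.37 to 1.33 when 1 library was left out, the lowest being without KPT-330 replicate 1 of day 6. The causes were not tested. The labels do not say that the replicate numbers mark a shared culture, and at day 6, the only day with 2 numbers in both conditions, the deviations had r = 0.58 over 9056 genes. With these numbers as a block the calls were 3957 with KPT-330 and 5819 with time, and Malat1 and Neat1 stood at 0.54 and 0.67 with KPT-330. Pvt1 rests on 20 to 130 UMIs in a library, which limits what its ratios can show.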

Other observations

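In barcodes outside the limits, relative to UMIs of genes other than mitochondrial ones, Neat1 was 3.73 ± 2.60 per 10000 against 1.89 ± 0.99 in the kept cells (SD, n = 17 libraries), higher in 16 of 17, and Gm26917 was 14.9 ± 16.3 against 2.20 ± 0.75, higher in 17 of 17. Tug1 was lower there in 14 of 17 libraries (0.45 ± 0.16 against 0.63 ± 0.13). For Malat1 the direction depended on the denominator: it was 79.0 ± 44.1 against 59.9 ± 25.1 on this scale, higher in 13 of 17, and 43.0 ± 19.7 against 52.8 ± 22.7 per 10000 of all UMIs, lower in 15 of 17.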
